A study of Bos taurus with 34 samples.

Results

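Bovine miRNAs whose name carries a number of 10000 or more were followed through the blood of dairy cows with and without inflammation of the uterine lining. All names of the form bta-miR-N with N of at least 10000 were taken, with every letter, copy and arm, which gave 95 of the 800 names in the count files (11.9%). They fall into a run of 27 names from miR-10162-5p to miR-10225b and a run of 68 names from miR-11971 to miR-12064. Endometrial cytology and biopsy had placed 6 cows in the healthy group and 11 in a group with subclinical endometritis, abbreviated SCE, in which the endometrium is inflamed without outward signs. Each was sampled at day 25 and day 45 in the words of the labels, which the design text gives as 21 and 44 days postpartum. The labels name blood serum and the design text plasma, and neither gives a breed, an age, a lactation number or a treatment. For healthy cow 3 the file for day 25 repeats the one for day 45 and was left out, so that 5 healthy cows at day 25, 6 healthy cows at day 45 and 11 SCE cows at each day remained.

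miRNAs are short RNAs cut by Drosha and Dicer from a hairpin transcript, and 1 arm of the hairpin usually persists in an Argonaute protein, where its seed bases pair with target messenger RNAs. Numbers are given in the order in which miRNAs are registered. Those with low numbers were found early, and many are abundant and shared among mammals, while high numbers go to sequences found later, often by deep sequencing of a single species. Cell-free blood holds miRNAs released by blood cells, vessels, liver and other organs, and miR-486 and miR-451 come mainly from red blood cells. The functions of most of the 95 miRNAs are not established, so they are described here by level, arm and host gene. The mature sequences were not used here.

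Total counts ranged from 678389 to 28872153 per library, and both libraries of SCE cow 10 were shallow, with 1343401 and 678389 counts. The red blood cell miRNA miR-486 took a mean of 50.3% of counts in healthy cows at day 25 and 46.2% at day 45, against 25.4% and 31.3% in SCE cows. Marker miRNAs of red blood cells, platelets, myeloid cells, lymphocytes, liver, striated muscle and epithelium were all detected somewhere, with none at 0 in every library. The summed level of the 4 red blood cell markers had a median of 459442 CPM (counts scaled to 1e6 per library) in healthy cows and 124725 CPM in SCE cows at day 25, and of 489657 and 375615 CPM at day 45. Sums of the 3 myeloid markers had medians of 9234 CPM in healthy and 36927 CPM in SCE cows at day 25, and 13215 and 26437 CPM at day 45. For the 3 lymphocyte markers the medians were 994 and 2540 CPM at day 25, and 664 and 3183 CPM at day 45. In the same order the 4 platelet markers had 2172, 5182, 3290 and 4431 CPM. The 5 epithelial markers had 536, 1064, 884 and 827 CPM, and the 3 liver markers 40535, 28264, 41534 and 26117 CPM. By library totals, the scale of these sums, 86.8% of all tested miRNAs were higher in SCE cows at day 25 and 88.5% at day 45. The part of these cell markers in the differences of the 95 names was not tested, apart from the relations to miR-486 given further on. The 4 striated muscle markers summed to medians of 7 to 15 CPM in the 4 groups. The titles of the healthy libraries carry the numbers 13 to 24 and those of the SCE libraries 31 to 52, so status and whatever those numbers stand for cannot be told apart. Nor can a change in how many cells release a miRNA be told apart from a change in how much each releases.

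The 95 miRNAs were scarce. Together they held 151020 counts, 0.0401% of all counts in the 33 libraries. Of the 95 names, 94 had at least 1 count somewhere and miR-12049 had none. Only 8 were counted in every library, 33 in 17 or more libraries, 48 in 10 or fewer, and 12 in a single library. A mean level of 10 CPM or more over the libraries was reached by 5 names and 1 to 10 CPM by 17, while 73 stayed under 1 CPM and 53 under 0.1 CPM. Fewer than 10 counts in all were recorded for 28 names, and 6 names rested on 1 count.

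Levels differed between number classes but did not fall steadily with the number. The median of the mean CPM was 0.0597 for the 95 names, against 10.8 for the 323 names numbered below 1000 and 0.134 for the 273 names of the cattle series from miR-2284 to miR-2499. A level of at least 1 CPM was reached by 23.2% of the 95 names, by 24.9% of the cattle series and by 68.1% of the names below 1000. Between these classes lie 29 names numbered from 1000 up to the cattle series, with a median of 0.785 CPM and 44.8% at 1 CPM or more, and 71 names above that series, with 0.403 CPM and 35.2%. Detection in every library was found for 8.42% of the 95 names, 11.4% of the cattle series and 52.9% of the names below 1000. These are descriptions of the same libraries, and mature miRNAs are close enough in length that counts were compared without a length correction. The 2 runs had nearly the same median, with 0.0597 CPM for the run from miR-10162-5p and 0.0596 CPM for the run from miR-11971. The lower run held 74.6% of the counts of the 95 names, and 90331 of its 112615 counts came from 1 miRNA.

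That miRNA was miR-10174-3p, with 90331 counts, 59.8% of the counts of the 95 names. Its mean was 259 CPM over the 33 libraries, which placed it 95th among the 800 names. miR-11973 followed at a mean of 39.05 CPM, miR-10225a at 35.8 CPM, miR-11971 at 18.7 CPM, miR-11982 at 14.4 CPM and miR-11986c at 8.19 CPM. These 6 names held 88.5% of the counts of the group. The next 4 were close to each other, with 4.26 CPM for miR-12044, 4.05 CPM for miR-10164-3p, 3.90 CPM for miR-10180-3p and 3.78 CPM for miR-10175-3p. Each of these 4 was missing from 1 or 2 libraries.

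**Figure D1:**
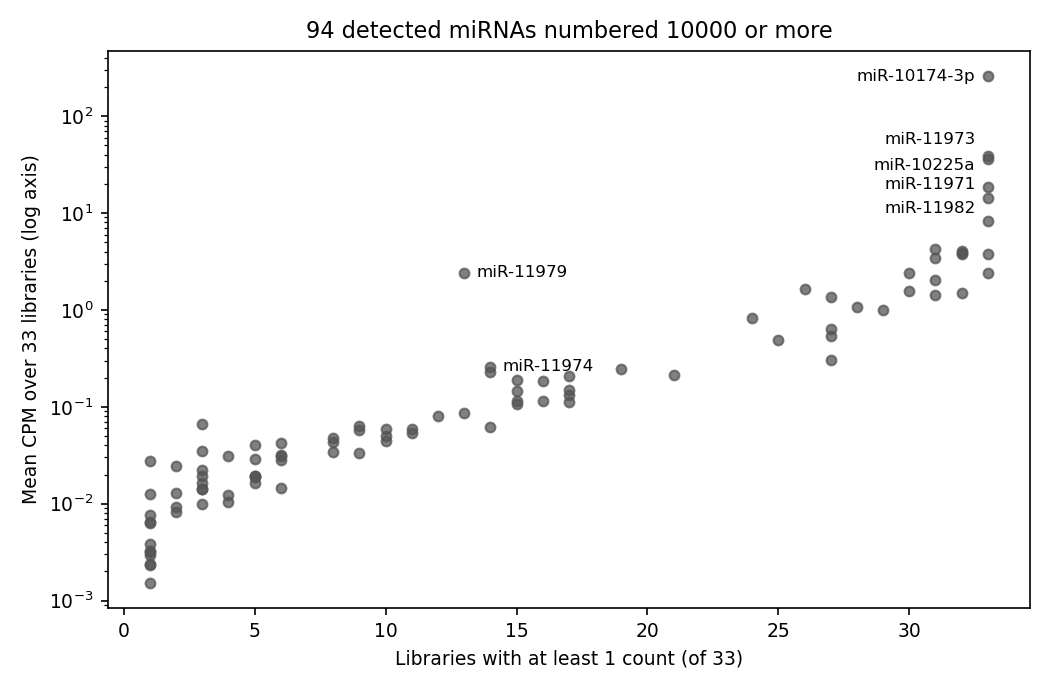
Mean CPM over the 33 libraries (log axis) against the number of libraries with at least 1 count, 1 point for each of the 94 detected names. Level and detection rise together, miR-10174-3p stands at 259 CPM in all 33 libraries, and miR-11979 stands apart at 2.42 CPM in 13 libraries.

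Where both arms of a hairpin were listed, 1 arm held most of the counts. Of the 95 names, 16 end in 5p, 9 in 3p and 70 carry no arm. Both arms were listed for 4 hairpins. The 3p arm of miR-10174 had 90331 counts and its 5p arm 21, a share of 99.98% for 3p. miR-10172 had 1526 counts of its 3p arm and 16 of its 5p arm, and miR-10175 had 1211 and 18, so that 3p held 98.96% and 98.5%. It was the higher arm in 33 and in 32 of the 33 libraries. miR-10182 went the other way with 29 counts of its 5p arm and 4 of its 3p arm, a total too low to order the arms within libraries. The 29 names with at least 100 counts were each compared with all other names library by library. Summed over libraries, the differences in counts to the nearest other name were never below 24.2% of the larger total, so none matched another name within 1% by that measure.

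Most of the 95 names lie inside genes. The RefSeq gene table of the ARS-UCD2.0 assembly held an entry for 90 of them, and the entries of 74 (82.2%) overlapped a protein-coding gene, regardless of strand. Among all 1032 miRNA genes named MIR in the same table the share was 66.0%. A further 4 overlapped only a long noncoding RNA gene and 12 overlapped neither. No entry was matched for miR-10174-3p, miR-10174-5p, miR-10173-5p, miR-10225a or miR-12024. The count files were made on another assembly, so no positions are given.

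The host genes cover several functions. miR-11973 overlaps SLC24A3, a sodium, potassium and calcium exchanger, and miR-11971 overlaps MEGF11, a transmembrane protein with EGF-like repeats. miR-11982 overlaps LYST, a regulator of lysosome trafficking, and miR-12044 overlaps ELF1, a transcription factor of lymphoid cells. miR-10175-3p overlaps PTGS1, the cyclooxygenase that makes prostaglandins in platelets. Genes of immune cells also hold miR-11999, inside the B-cell kinase gene BTK, and miR-12039, inside the receptor gene CSF3R of neutrophils. miR-11998 overlaps ZEB1, a repressor of epithelial genes, miR-10179-5p overlaps FASN, the fatty acid synthase, and miR-10170-5p overlaps ABCG2, a transporter of the mammary gland and other epithelia. Of these names miR-12039, miR-10179-5p and miR-10170-5p were scarce, at mean levels of 0.0272, 0.0597 and 0.0799 CPM, and they were picked for their host genes after the table had been seen. Of the 20 matched names with a mean of at least 1 CPM, 17 lay in a protein-coding gene, and of the 70 below 1 CPM, 57 did. Only 5 of the matched names had another miRNA gene within 10000 bases, and 1 of these was miR-12005, whose entries overlap each other.

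The share of a library held by the 95 names was higher in SCE cows by raw totals, and the means lay closer once miR-486 was set aside. It was 0.0247% ± 0.00716 (SD, n = 5) in healthy and 0.0533% ± 0.0199 (SD, n = 11) in SCE cows at day 25. At day 45 it was 0.0313% ± 0.0143 (SD, n = 6) and 0.0456% ± 0.0302 (SD, n = 11). With miR-486 left out of the total the 4 means were 0.0547%, 0.0736%, 0.0582% and 0.0645% in the same order, and the standard deviations were 0.0168, 0.0208, 0.00991 and 0.0293. With totals scaled by the trimmed mean of M values (TMM), which aligns libraries on the bulk of their miRNAs, the 4 means were 0.0369%, 0.0402%, 0.0417% and 0.0363% in that order. Without miR-10174-3p among the members the share of all counts was 0.0112% in healthy and 0.0200% in SCE cows at day 25, and 0.0155% and 0.0159% at day 45. SCE cow 9 had the highest share at day 45, 0.125%. The part of miR-486 in the difference of shares was not tested beyond these denominators.

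**Figure D2:**
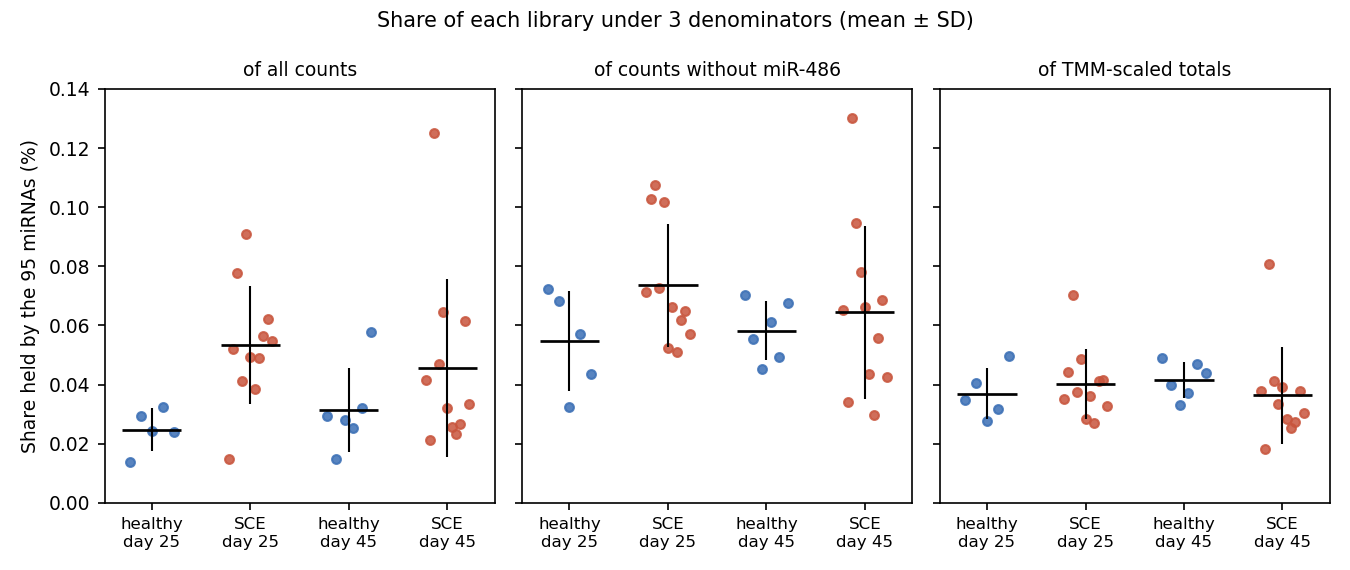
Share of each library (%) held by the 95 miRNAs, with all counts, counts without miR-486 and TMM-scaled totals as the denominator. Points are libraries, blue for healthy and red for SCE cows, with bars for the mean and SD of each group, and the gap between healthy and SCE cows at day 25, 0.0247% against 0.0533% of all counts, narrows in the other panels.

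A similar number of the 95 names was detected in each group at full depth, with means of 37.2 and 36.7 in healthy cows at days 25 and 45, and 43.5 and 39.2 in SCE cows. Thinned to the smallest total of 678389 counts, the expected number was 16.9 ± 3.13 (SD, n = 5) and 16.6 ± 3.95 (SD, n = 6) in healthy cows. It was 22.2 ± 2.55 and 20.5 ± 4.03 (SD, n = 11 each) in SCE cows. The thinned numbers carry the same difference in the share of miR-486 as the raw shares. No count in any healthy library was found for 15 names and none in any SCE library for 4, with 11 healthy and 22 SCE libraries to look in. Of the 95 names, 48 were counted in 10 or fewer libraries, and such scarce names are missed more easily in the smaller group. The same count is not given here for all names of the series, and a part of status in it was not tested.

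Whether SCE cows differ from healthy cows in these miRNAs was tested at each day and over both days by edgeR's quasi-likelihood F test, with Benjamini-Hochberg adjustment over all miRNAs that passed the filter on low counts. None of the tested names passed an adjusted p of 0.05 in any of the 3 comparisons. At day 25, 23 of the 95 names passed the filter, 0 were called, and the background was 0.269% of 372 miRNAs called. An unadjusted p under 0.05 was found for 3 of the 23 (13%), against 20.2% of all 372. At day 45, 0 of 25 names were called against 0% of 382 miRNAs, and 3 (12%) had an unadjusted p under 0.05 against 10.2%. On counts summed over both days of a cow, 0 of 27 names were called against 0.239% of 418 miRNAs, and 3 (11.1%) had an unadjusted p under 0.05 against 16.5%. DESeq2 gave an adjusted p to 39, 87 and 12 members in the 3 comparisons and called 0 of them. An unadjusted p under 0.05 by DESeq2 was found for 4, 4 and 5 members, counted also among those without an adjusted p. Over both days 94 members were in that fit. The share of all miRNAs at an unadjusted p under 0.05 by DESeq2 is not given. Over both days DESeq2 called 15 of all 286 miRNAs with an adjusted p. The small counts moved with single cows, and the share of all miRNAs is not given for the fits without a cow. At day 25 the edgeR count at an unadjusted p under 0.05 was 5 when healthy cow 4 or SCE cow 9 was dropped, and 1 when any of healthy cows 2 and 6 and SCE cows 11, 12, 16 and 17 was. At day 45 it was 5 without healthy cow 3. Over both days it was 1 without healthy cow 1 or 2, 5 without healthy cow 4 and 7 without healthy cow 6.

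Members went in both directions. At day 25, 11 of the 23 tested names were higher and 12 lower in SCE cows, with a median log2 fold change of -0.04, and -0.05 over all 372 miRNAs. At day 45, 10 were higher and 15 lower, with a median of -0.18 against 0.11 over all miRNAs. Over both days 11 were higher and 16 lower, with a median of -0.19 against 0.04. Of all miRNAs 47.85%, 57.07% and 53.11% were higher at day 25, at day 45 and over both days. These directions rest on TMM scaling. With library totals alone the median of all miRNAs moved up by 0.93 at day 25, 0.60 at day 45 and 0.73 over both days on the log2 scale. Then 20 of 23, 18 of 25 and 22 of 27 members were higher in SCE cows, against 86.8%, 88.5% and 89.5% of all miRNAs. Folds are given on the TMM scale unless stated.

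**Figure D3:**
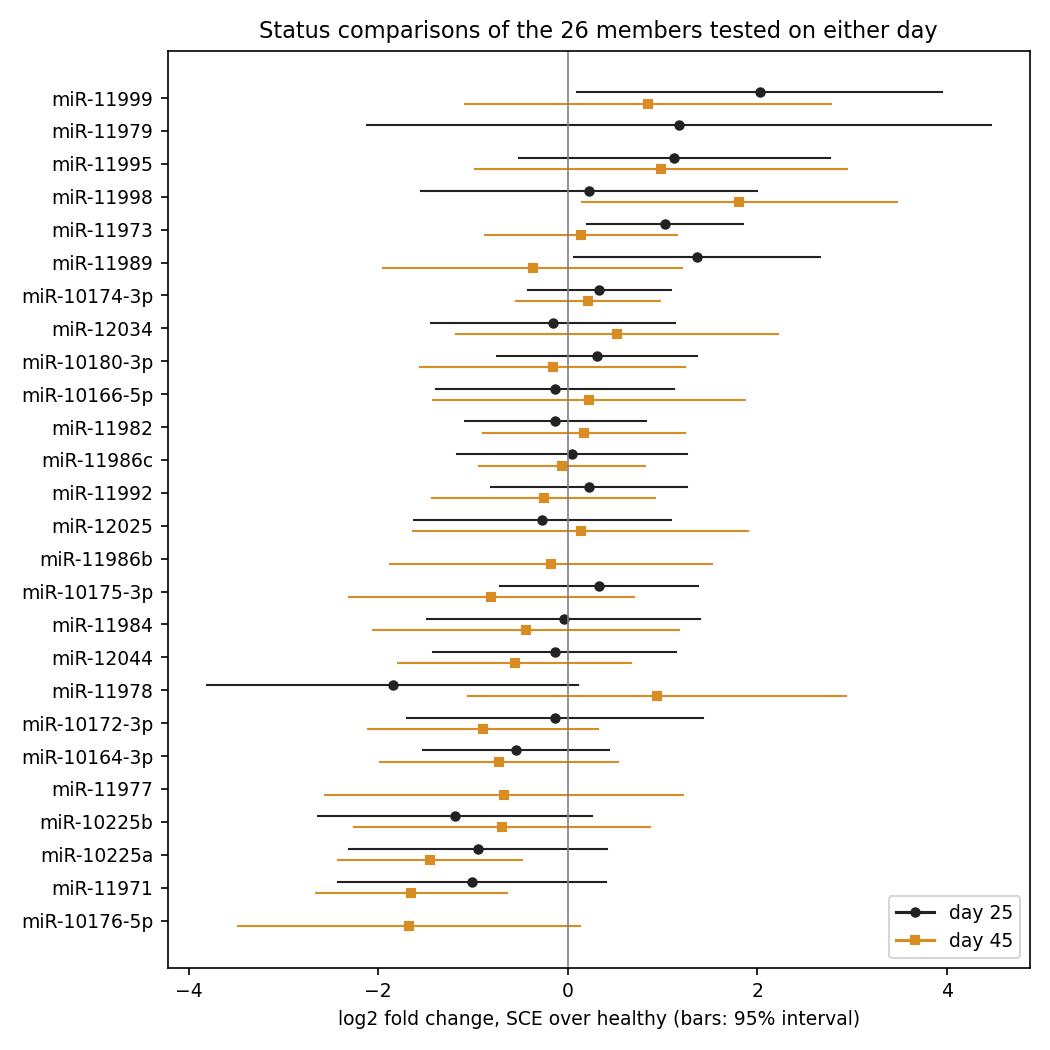
log2 fold change of SCE over healthy cows for the 26 names tested on either day, black circles for day 25 and orange squares for day 45, with 95% intervals from edgeR. Most intervals span 0, those of miR-11971 and miR-10225a at day 45 lie below it, and those of miR-11973, miR-11989 and miR-11999 at day 25 and miR-11998 at day 45 lie above it, none with an adjusted p under 0.05.

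miR-10174-3p, the most abundant of the names, overlapped between the statuses on the TMM scale. At day 25 the healthy cows had 87.1, 208, 184.6, 201 and 318 TMM-normalized CPM, and the SCE cows ranged from 142 to 465 with a median of 232. Among the SCE cows 3 exceeded the highest healthy one. SCE cows over healthy cows gave a log2 fold change of 0.34 (SE 0.36 by edgeR) at day 25, 0.21 at day 45 and 0.31 over both days. By library totals the means were 135.8 CPM in healthy and 333 CPM in SCE cows at day 25, and 158 and 297 CPM at day 45. The highest level at day 45, 543 TMM-normalized CPM, was in SCE cow 9, which also had the highest level at day 25.

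miR-11973, in the exchanger gene SLC24A3, had the lowest p among the names at day 25. The healthy cows had 15.9, 22.9, 20.3, 12.7 and 31.4 TMM-normalized CPM. The SCE cows ranged from 19.9 to 83.3 with a median of 40.5. Among the SCE animals 10 were above the healthy median and 7 above the highest healthy animal. The log2 fold change was 1.02 (SE 0.40, 95% interval 0.20 to 1.85), with an edgeR adjusted p of 0.186. At day 45 the groups overlapped, and healthy cow 6 had 77.7 and the highest SCE cow 57.5 TMM-normalized CPM.

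miR-11989 and miR-11999 were the other names with an unadjusted p under 0.05 at day 25. miR-11989 lies in TM9SF1, a gene of a transmembrane protein of endosomes. The healthy cows had 0.606, 0, 0.756, 1.39 and 0.588 TMM-normalized CPM and the SCE cows 0.667 to 2.77 with a median of 1.88, and 8 of the SCE cows exceeded the highest healthy one. The difference on the log2 scale was 1.37 (SE 0.62, edgeR adjusted p 0.229). For miR-11999, in BTK, the healthy cows had 1.82, 0, 0.151, 0.521 and 0 TMM-normalized CPM and the SCE cows 0.223 to 6.11. Its log2 fold change was 2.03 (SE 0.93, edgeR adjusted p 0.229), and without healthy cow 1 it was 3.35. Healthy cows 1 and 5 stood within the SCE range and the other 3 below all SCE cows.

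A further pair was lower in SCE cows at day 25 by their point estimates, with intervals that included 0. miR-11978, in COBLL1, had healthy values of 16.1, 7.35, 0.151, 1.13 and 2.06 TMM-normalized CPM and an SCE median of 0.471, at a difference of -1.85 in log2 terms (SE 0.94, edgeR adjusted p 0.257). Without healthy cow 1, the highest, that difference was -0.78. For miR-10225b, in DMBT1, a mucosal defence protein, the difference was -1.19 (SE 0.70, edgeR adjusted p 0.329).

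At day 45 the lowest p values belonged to miR-11971 and miR-10225a, both lower in SCE cows. The healthy cows had 30.0, 142, 44.8, 23.2, 40.8 and 5.48 TMM-normalized CPM of miR-11971. The SCE cows ranged from 4.06 to 27.7 with a median of 16.3. All 11 SCE cows lay below the healthy median of 35.4, and 4 of 6 healthy cows lay above every SCE cow. The log2 fold change was -1.65 (SE 0.49, 95% interval -2.66 to -0.64), with an unadjusted p of 0.00241 and an adjusted p of 0.277 by edgeR. Without healthy cow 2, the highest, it was -0.79 (edgeR adjusted p 0.629).

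For miR-10225a the healthy cows had 184.8, 62.0, 35.4, 54.0, 51.5 and 18.9 TMM-normalized CPM at day 45, and the SCE cows 3.23 to 42.3 with a median of 28.5. Again all 11 SCE cows lay below the healthy median, of 52.7, and 4 of 6 healthy cows above every SCE cow. The log2 fold change was -1.45 (SE 0.47, edgeR adjusted p 0.277), and -0.76 without healthy cow 1, the highest (edgeR adjusted p 0.673). At day 25 both miRNAs had the same sign, with -1.01 for miR-11971 and -0.94 for miR-10225a, and intervals that included 0. There the value of miR-10225a was -0.19 without healthy cow 1, and that of miR-11971 was -1.76 without SCE cow 9. The 2 days are different libraries of the same cows.

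miR-11998, in ZEB1, was the third name with an unadjusted p under 0.05 at day 45. The healthy cows had 0.158, 0, 0, 1.06, 0.227 and 2.27 TMM-normalized CPM and the SCE cows 0.513 to 5.71. All 11 SCE cows lay above the healthy median of 0.193, and 4 exceeded the highest healthy one. In log2 terms the difference was 1.81 (SE 0.81, edgeR adjusted p 0.460), and 2.79 without healthy cow 6. The estimate was -1.68 (SE 0.88) for miR-10176-5p, in the adaptor gene SH3KBP1. For miR-10172-3p, in BEGAIN, a gene of a synaptic protein, it was -0.90 (SE 0.59), with -0.41 when healthy cow 4 was dropped and -0.56 when healthy cow 1 was. Their edgeR adjusted p values were 0.546 and 0.645.

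**Figure D4:**
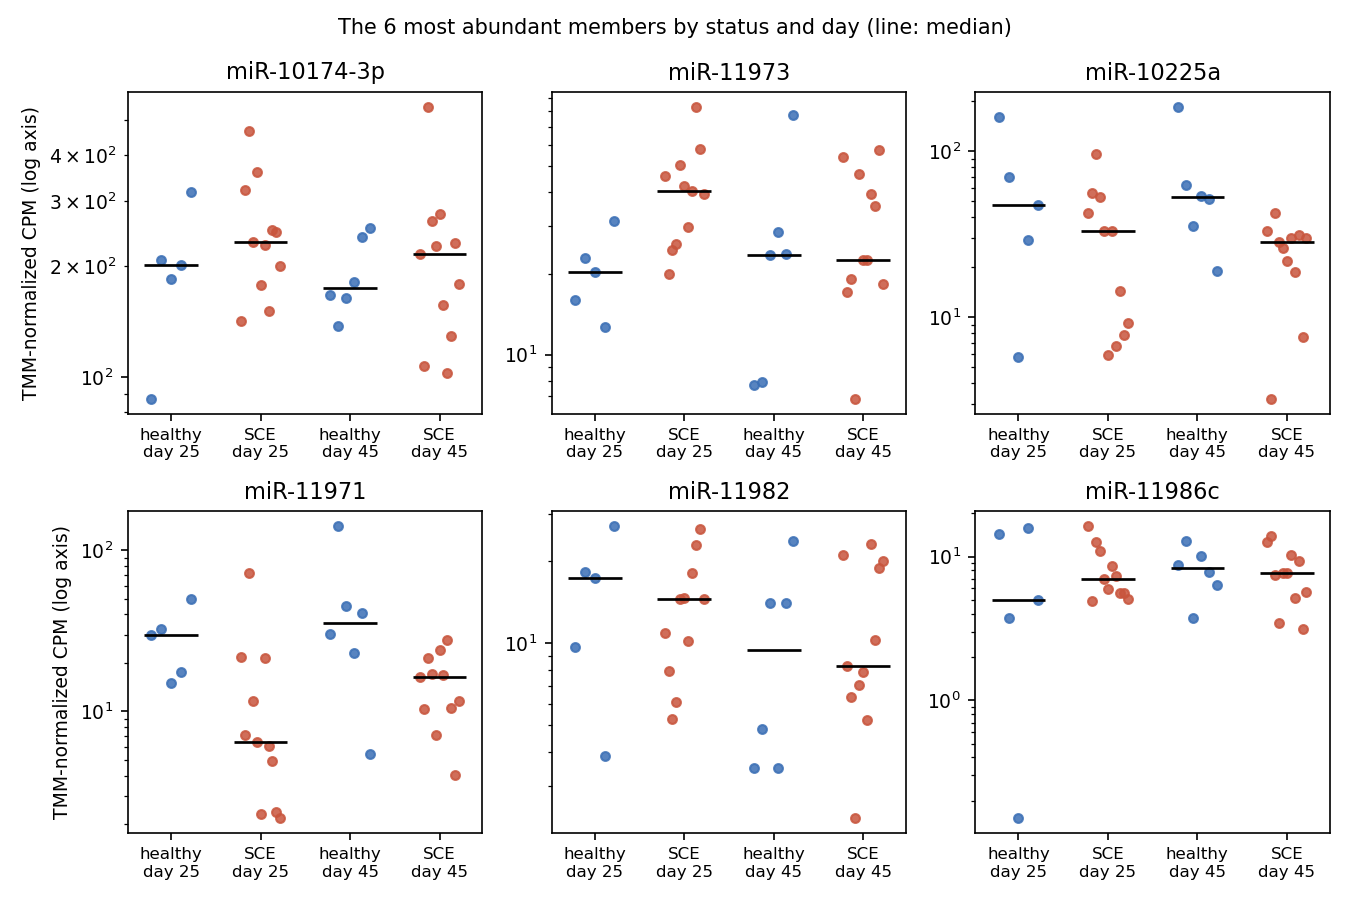
TMM-normalized CPM (log axis) of the 6 most abundant names in each library, blue for healthy and red for SCE cows, with a line at each group's median. Groups overlap in every panel, and for miR-11971 and miR-10225a at day 45 all SCE cows lie below the healthy medians of 35.4 and 52.7.

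Over both days, with the counts of each cow summed, the same pair came first. On the log2 scale miR-10225a differed by -1.23 (SE 0.44, edgeR adjusted p 0.191) and miR-11971 by -1.24 (SE 0.44, edgeR adjusted p 0.191). Dropping healthy cow 1 left -0.59 for miR-10225a, and dropping healthy cow 2 left -0.96 for miR-11971. Healthy cows had 15.6 to 64.1 TMM-normalized CPM of miR-11971 with a median of 28.9, and SCE cows 3.26 to 42.5 with a median of 10.7. SCE cow 9 was the highest of the SCE cows, and without it miR-11971 passed the threshold, with a log2 fold change of -1.55 (edgeR adjusted p 0.0423). miR-10176-5p had a log2 fold change of -1.55 (SE 0.67, edgeR adjusted p 0.256). miR-11999, with 1.43 (SE 0.80), and miR-11995, with 1.07 (SE 0.60), had an edgeR adjusted p of 0.346 each.

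The level of miR-486 in a cow moved with several of these names. Over the 17 cows, with counts of both days summed and TMM-scaled, the log2 level of miR-10225a correlated with that of miR-486 at Pearson's r = 0.69 (permutation p 0.00243, adjusted over 6 relations 0.00753) and Spearman's rho = 0.68 (permutation p 0.0038, adjusted 0.0194). For miR-11971 r was 0.68 (permutation p 0.00251, adjusted 0.00753) and rho 0.64 (permutation p 0.00648, adjusted 0.0194). For miR-11973 r was -0.57 (permutation p 0.0166, adjusted 0.0333) and rho -0.58 (permutation p 0.017, adjusted 0.0341). Without the 2 cows farthest from the median of miR-486 the 3 values of r were 0.62, 0.48 and -0.46.

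Within statuses the relations of these 3 miRNAs had the same sign as over all cows. Over the 11 SCE cows r was 0.41 for miR-10225a (permutation p 0.212), 0.46 for miR-11971 (permutation p 0.152) and -0.33 for miR-11973 (permutation p 0.313). Over the 6 healthy cows r was 0.91 for miR-10225a (exact permutation p 0.00417), 0.57 for miR-11971 (exact permutation p 0.251) and -0.82 for miR-11973 (exact permutation p 0.0319). For the other 3 of the 6 most abundant names the pooled r was -0.41 for miR-10174-3p (permutation p 0.105, adjusted 0.126), -0.36 for miR-11982 (permutation p 0.151, adjusted 0.151) and 0.44 for miR-11986c (permutation p 0.0746, adjusted 0.112). Their rho was -0.50 (permutation p 0.0432, adjusted 0.0518), -0.37 (permutation p 0.149, adjusted 0.149) and 0.52 (permutation p 0.0346, adjusted 0.0518). Within statuses miR-11986c had r = 0.76 over the SCE cows (permutation p 0.00761) and 0.36 over the healthy cows (exact permutation p 0.486), and these within-status p values are unadjusted. Once each library's miR-486/miR-23a ratio entered the fit as a covariate, the log2 fold change of miR-10225a at day 25 turned from -0.94 to 0.85 and that of miR-11971 from -1.01 to 0.18. The same fit gave -1.30 and -0.89 for miR-10225a and miR-11971 at day 45, and -0.25 and -0.69 over both days. At day 25 it gave -0.021 for miR-11978 and 0.33 for miR-11999. Values of 0.72 for miR-11973 and 0.89 for miR-11989 kept their sign on that day. Those of miR-11982 and miR-11986c were farther from 0 than without the covariate, at -0.76 and 0.71.

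Between the samplings no change was called for the names tested, 21 in healthy and 19 in SCE cows, and the other 74 and 76 were not tested. In healthy cows 0 of 21 tested names were called, against 0% of 345 miRNAs, and 1 had an unadjusted p under 0.05, against 2.9%, or 0 without healthy cow 1. In SCE cows 0 of 19 were called, against 0% of 346, and 0 had an unadjusted p under 0.05, against 4.05%. DESeq2 called 0 members in either status, with 1 and 0 at an unadjusted p under 0.05. These fits did not pair the libraries of a cow. With the cow as a replicate block, which left out healthy cow 3, edgeR gave 0 names at an unadjusted p under 0.05 in healthy cows and 3 in SCE cows. The 3 included miR-12044 (edgeR unadjusted p 0.030) and miR-11973 (edgeR unadjusted p 0.039), and none had an adjusted p under 0.05. In healthy cows 14 of 21 names were higher at day 45 and 7 lower, with a median log2 fold change of 0.09 against 0.01 over all miRNAs. With DESeq2 size factors in the edgeR fit the split was 10 to 11, and 38.3% of all miRNAs were higher. In SCE cows 4 were higher and 15 lower, with a median of -0.37 against -0.11 over all miRNAs. On the TMM scale 52.75% of all miRNAs in healthy and 41.62% in SCE cows were higher at day 45.

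The name with an unadjusted p under 0.05 in healthy cows was miR-11978. At day 25 healthy cows 1, 2, 4, 5 and 6 had 106, 81, 1, 26 and 7 counts, and at day 45 they had 22, 0, 10, 14 and 2, with 0 in healthy cow 3. It was lower at day 45 in 4 of the 5 cows with both days. The log2 fold change was -3.23 (SE 1.13), with an unadjusted p of 0.00959 and an adjusted p of 0.9999 by edgeR. With the cow as a replicate block, and so without healthy cow 3, it was -2.35. On the TMM scale miR-11989 was higher at day 45 in 5 of 5 healthy cows, of which healthy cow 2 went from 0 counts to 1, and by library totals in 4 of 5. It had a log2 fold change of 1.83 (SE 1.01, edgeR adjusted p 0.9999), or 1.12 without healthy cow 3, and in SCE cows was lower in 7 of 11 on the TMM scale and higher in 6 of 11 by library totals. miR-11971 had a log2 fold change of 0.97 in healthy cows (0.24 without healthy cow 2), higher in 4 of 5, and was higher in 8 of 11 SCE cows. miR-10175-3p and miR-11973 had 0.98 and 0.51 in healthy cows, each higher in 3 of 5. Without healthy cow 3, which has no day-25 library, that of miR-10175-3p was -0.19, and without healthy cow 6 that of miR-11973 was -0.0042.

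In SCE cows the lowest p values were those of miR-12044, in the lymphoid factor gene ELF1, and miR-11984, in NOM1. miR-12044 was lower at day 45 in 9 of 11 cows, with a log2 fold change of -0.74 (SE 0.41, edgeR adjusted p 0.705), and -0.77 with the cow as a block. miR-11984 had a log2 fold change of -1.06 (SE 0.65, edgeR adjusted p 0.705), which was -0.25 without SCE cow 7 and -0.68 without SCE cow 8. miR-11999 had -0.90, miR-11973 had -0.47 and was lower in 9 of 11 cows, and miR-11992 had -0.45, or -0.20 without SCE cow 14, and was lower in 9 of 11.

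Whether the day effect differed between statuses was tested as an interaction over the 33 libraries, without pairing the libraries of a cow. By edgeR, 0 of 27 tested names were called, against 0% of 406 miRNAs, and 0 had an unadjusted p under 0.05, against 1.72%. That number was 1 when any of healthy cows 4, 5 and 6 and SCE cows 7, 8 and 10 was dropped. DESeq2 called 0, with 1 at an unadjusted p under 0.05, which was miR-11978. The largest differences among the 5 of lowest p were 2.63 for miR-11978 (SE 1.44) and -1.78 for miR-11989 (SE 1.03) on the log2 scale, with an edgeR adjusted p of 0.988 each. The values for miR-11998, miR-10175-3p and miR-11973 were 1.56, -1.17 and -0.97. With the cow as a replicate block, and so without healthy cow 3, miR-11978 was at 2.14 and miR-11989 at -1.69. In that paired fit miR-11998 was at 0.92, miR-10175-3p at -0.18 and miR-11973 at -0.61, and 0 members had an unadjusted p under 0.05 by edgeR. In the unpaired fit miR-11998 had the other sign, -0.73, without healthy cow 4, and was at 2.74 without healthy cow 6. Without healthy cow 3 the unpaired value of miR-10175-3p was -0.17, and without healthy cow 6 that of miR-11973 was -0.46.

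miR-11979 stood apart from the other names by being present in some cows and nearly absent from others, on both days. It was chosen for description after its values were seen. It had 707 counts in 13 of 33 libraries, and 704 of these (99.6%) lay in the 10 libraries of 5 cows. Healthy cow 4 had 46 counts at day 25 and 20 at day 45. SCE cow 14 had 50 and 11, SCE cow 15 had 14 and 1, SCE cow 16 had 238 and 138, and SCE cow 17 had 159 and 27. The other 12 cows had 3 counts in 23 libraries, 1 each in healthy cow 3 and SCE cows 10 and 11, and 20 of those libraries were at 0. A count of 0 in those 20 allows up to 0.104 to 2.23 CPM, depending on the library's depth, at a floor of 3 counts.

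With at least 10 counts as presence, 4 cows had miR-11979 on both days, 1 on 1 day and 11 on neither, among the 16 cows with both days. At least 3 cows with presence on both days and at least 5 with presence on neither were found for 8 of the 95 names, and the number of cows with presence on 1 day only ranged from 1 to 6 among them, with a median of 5.5. miR-11979 was the 1 of those 8 with no more than 1 such cow, and over all 800 names 5 of 58 had so few. Those other 4 were miR-1246, miR-2285ba, miR-371 and miR-543. With 1 count as presence, miR-11979 had 2 such cows, 0 of 8 members had no more than 1, and over all names 2 of 55 did, miR-2300a-5p and miR-2300b-3p. SCE cows 14 to 17 hold the consecutive title numbers 45 to 52. miR-11979 lies outside any gene in the RefSeq table. At day 25, 4 of the 5 healthy cows were at 0, and the fitted log2 fold change of 1.17 (SE 1.58) had an interval that included 0.

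**Figure D5:**
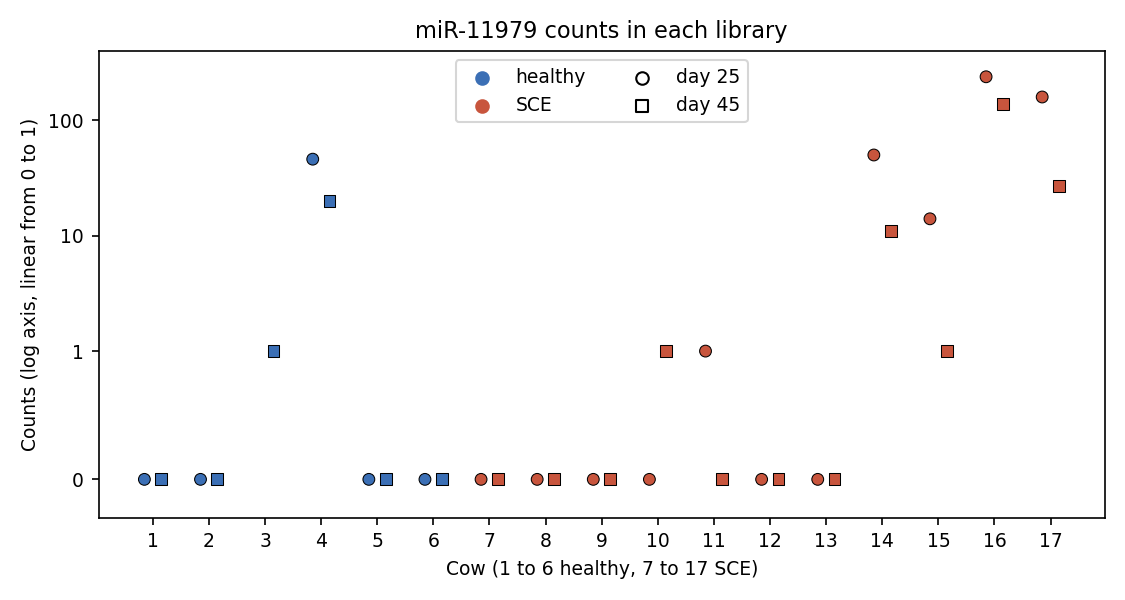
Counts of miR-11979 in each library (log axis, linear from 0 to 1) by cow, circles for day 25 and squares for day 45, blue for healthy and red for SCE cows. Healthy cow 4 and SCE cows 14 to 17 are counted on both days, up to 238 counts, and no library of another cow has more than 1.

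Some scarce names rested on a single library. All 14 counts of miR-12039, in the neutrophil receptor gene CSF3R, came from healthy cow 2 at day 25. Of the 11 counts of miR-12018, in RAPGEF6, 10 came from the same cow at day 45. Of the 14 counts of miR-12064, 10 came from SCE cow 14 at day 45. Of the 61 counts of miR-11974, in the SKI gene, 30 came from healthy cow 4 at day 25, a library in which miR-11986c had 1 count, against 152 at day 45. These names did not pass the filter in any comparison except miR-11986c, and the values carry no test.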

How the data were processed

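Small RNA of 17 cows was counted per mature miRNA. Per the labels' protocols, the TruSeq Small RNA kit, 13 or 16 PCR cycles and gel selection were used, and no molecular identifier is named. Amplified reads were thus counted, and intervals and floors cover no PCR error. The deposited values are whole-number counts without normalization. Per the submitters' processing notes, bcl2fastq 2.17.1.14, the build UMD 3.1 and DESeq2 were used. Aligner, counter, multi-mapping rule and miRNA annotation: not given in the sources used here.

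For healthy cow 3 both deposited files held the same count for every name, so 33 libraries of 34 were used. edgeR 4.0.16 in R 4.3.3 was run with TMM, its default filter and Benjamini-Hochberg adjustment over all miRNAs tested, two-sided, at 0.05, and DESeq2 1.42.0 as an alternative. The test script was tested on simulated data. CPM used library totals unless named TMM-normalized. Host genes came from RefSeq symbols on ARS-UCD2.0 by overlap. Correlations used log2 of TMM-scaled CPM plus 0.5 and 100000 permutations, or all of them for 6 cows, and were added after the data were seen.

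Cows served as replicates, and no label names shared litters or days. The same cow was sampled on both days, so the animal label pairs the days. Deviations from group means correlated within a cow at a median r of 0.25 over 16 cows, from -0.25 to 0.81, with 11 over 0.1. The miRNAs named by rule are the 10 of highest mean CPM, the 5 of lowest p in each comparison, both arms of a hairpin and extremes of a range. Further names were picked by hand after their values or host genes were seen. Among them are miR-11979, miR-12039, miR-10179-5p, miR-10170-5p, miR-12018, miR-12064 and miR-11974. The members and lists were chosen with earlier results of these data known. Alternatives were other scalings, filters and covariates, DESeq2, a replicate block and leaving out each cow.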

Additional observations from a re-analysis of the deposited data

Results flagged for a closer look

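In 6 of the 38 groups of named miRNAs and library measures that were small enough to be examined, the highest cow lay far from the others by Dixon's test. Chance flags about 1 in 20 groups of normally distributed values, which untransformed CPM need not be, and the groups share cows. The 6 flagged are all groups of a named miRNA. All 6 are healthy cows, since groups of 11 were not examined. At day 25, miR-11999 in healthy cow 1 was at 1.82 TMM-normalized CPM, with 0.521 in the next cow. At day 45, miR-11971 in healthy cow 2 was at 141.7 against 44.8, and miR-10225a in healthy cow 1 at 184.8 against 62.0. On that day miR-11973 in healthy cow 6 was at 77.7 against 28.5, and miR-10175-3p in healthy cow 3 at 17.9 against 6.42. With both days of a cow summed, miR-10225a in healthy cow 1 was at 183.4 against 62.3. Of the 27 members tested for the interaction, none moved one way between days in every healthy cow and the other way in every SCE cow. Other names were not examined for this.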

How the results depend on the processing

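No member was called, except in the following settings. With library totals alone 2 were called at day 25, miR-11973 (log2 fold change 2.11, edgeR adjusted p 0.0332) and miR-11999 (3.41, edgeR adjusted p 0.0397). In that setting 48 of all 372 miRNAs (12.9%) were called, all of them higher in SCE cows. Under the miR-486/miR-23a ratio as covariate 1 was called at day 25, miR-11979 (-12.7, edgeR adjusted p 0.0166), a fitted value against healthy cows of which 4 of 5 were at 0. It was the only 1 of 372 miRNAs called in that setting. Leaving out single cows gave 0 to 1 over both days. Counts at an unadjusted p under 0.05 moved more, and the share of all miRNAs at that threshold is not given for these settings. With library totals alone they were 7 of 23 members at day 25, 1 of 25 at day 45, 5 of 27 over both days and 1 of 27 for the interaction. Those for status were all higher in SCE cows, whereas under TMM 2 at day 45 and 3 over both days were lower. Without a filter on low counts more members were tested. For status they were then 12 of 84 at day 25, 13 of 88 at day 45 and 14 of 94 over both days. For the day effect they were 7 of 79 in healthy and 9 of 90 in SCE cows, and for the interaction 6 of 94. With a mean of at least 10 CPM they were 1 of 5 at day 25 and 0 of 4 for the day effect in healthy cows. With the ratio as a covariate they were 1 at day 45, 0 over both days and 1 for the interaction, and by DESeq2 5 over both days and 1 for the interaction. Without single cows they ranged from 1 to 5 at day 25, from 2 to 5 at day 45, from 1 to 7 over both days, and from 0 to 1 in healthy cows and for the interaction. Paired by cow, with the replicate block and so without healthy cow 3, they were 0 in healthy and 3 in SCE cows. The day effect of miR-10175-3p in healthy cows was then -0.41, against -0.19 unpaired without healthy cow 3. The block changed no other call.

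Of the 47 named log2 fold changes, 14 changed sign in a setting other than leaving out a cow and 10 without some cow. Library totals alone gave 0.18 for miR-10225a, 1.05 for miR-11982, 0.78 for miR-12044 and 0.24 for miR-10164-3p at day 25, and 0.67 for miR-11986c and 0.35 for miR-10180-3p at day 45. With the ratio as a covariate, day 25 gave 0.21 for miR-10225b, 0.85 for miR-10225a, 0.18 for miR-11971 and 0.18 for miR-10164-3p. Day 45 gave -0.32 for miR-10174-3p, -0.14 for miR-11973, -0.069 for miR-11982 and 0.25 for miR-11986c, and miR-11999 was at -0.090 over both days and 0.11 between days in SCE cows. miR-12044 at day 25 was at 0.042 without a filter and 0.16 with the total as a covariate, which gave 0.15 for miR-11986c at day 45. Without single cows, day 25 gave -0.38 to 0.16 for miR-11982, -0.23 to 0.50 for miR-11986c and -0.42 to 0.12 for miR-12044. Day 45 gave -0.014 to 0.37 for miR-10174-3p, -0.97 to 0.31 for miR-10175-3p, -0.36 to 0.18 for miR-10180-3p and -0.18 to 0.20 for miR-11986c. The day effect in healthy cows ran from -0.19 to 1.40 for miR-10175-3p and from -0.0042 to 0.79 for miR-11973, and the interaction of miR-11998 from -0.73 to 2.74. The cause of these changes was not tested.

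The share of counts held by the members in healthy cows at day 25 was 0.0369% with TMM, and without miR-486 the shares were 0.0547% and 0.0582% in healthy and 0.0736% in SCE cows at day 25. At a threshold of 10 counts, 17.8 and 19.7 members were detected in healthy and 18.6 and 18 in SCE cows. Depth limits the 73 names under 1 CPM.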
